A study of Homo sapiens with 19 samples.

Results

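The CD1 family, CD1A to CD1E, was followed in THP-1 cells given vitamin C (vit C). Its 5 members were taken by gene name from the 31033 gene names on the array, and 10 of the 50238 probes carried those names. THP-1 is a human cell line from a monocytic leukaemia, and every group had first been turned into macrophage-like cells with PMA, a phorbol ester, at 30 nM. Cells were then left untreated (UT) or given 0.1 mM vit C and harvested after 8, 24, 48 or 96 h. UT cells were measured on 2, 3, 2 and 3 arrays at these time points, and vit C-treated cells on 3, 2, 2 and 2, which made 19 one-colour arrays. The study described its replicates as biological, the arrayed RNA had been chosen for its integrity, and all cells belonged to 1 line.

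CD1 proteins resemble MHC class I molecules and pair with beta-2 microglobulin, but their grooves hold lipids in place of peptides. CD1A, CD1B and CD1C display self and mycobacterial lipids at the cell surface to T cells, CD1D presents glycolipids to natural killer T cells, and CD1E stays inside the cell, where it helps to load lipids. CD1A, CD1B and CD1C are best known from dendritic cells and thymocytes and are low on monocytes, whereas CD1D is found on monocytes and macrophages as well. Short signals in the cytoplasmic tail of CD1B, CD1C and CD1D bind adaptor complexes and send the molecules through endosomes, a route for which CD1A has no such tyrosine motif.

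All 5 genes lie together on human chromosome 1. In RefSeq's GRCh38.p14 annotation CD1D spans chr1:158178030-158186427, CD1A chr1:158248336-158258269, CD1B chr1:158285405-158331531, CD1C chr1:158289923-158294774 and CD1E chr1:158353894-158357553, so that the cluster covers 179.5 kb. The probes were 60 bases long, and the longest run shared by probes of different members was 9 bases. Their match to the transcripts of the other members was not tested. The probes below are those on which the results turn. Capitals mark the codons of the tyrosine motif of the tail in the CD1C and CD1B probes and AATAAA, the usual polyadenylation signal, in the CD1A probe, of which the last 30 bases are given. The second probes of CD1A and CD1D are in lower case throughout.
CD1C, only probe: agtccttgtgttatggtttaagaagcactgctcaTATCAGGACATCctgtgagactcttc
CD1B, dimmest probe: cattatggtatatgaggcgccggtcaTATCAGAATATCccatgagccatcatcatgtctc
CD1A, brightest probe, end: catgaaacatgttctcAATAAAactctgtg
CD1A, second probe: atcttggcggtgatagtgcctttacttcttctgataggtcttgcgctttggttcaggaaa
CD1D, second probe: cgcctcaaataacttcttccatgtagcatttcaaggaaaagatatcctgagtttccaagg

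The brightest CD1B probe and the next one shared the 30-base run taccaagaagcccaagatatcagcccaaaa and so read the same stretch of the transcript, which means that they did not measure CD1B independently. CD1C had 1 probe, CD1A, CD1D and CD1E had 2 each and CD1B had 3.

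Signals below are normalized log2 values, that is, the log2 of an array's processed signal minus that array's 75th percentile, and a gene is described by its brightest probe unless another is named. A level of 0 therefore lies at the 75th percentile of an array. Levels of different probes were not compared with each other, because probes differ in how strongly they bind. Over 17 arrays the 75th percentile of the signal was 290 to 626 and 57.5% to 68.7% of probes were well above background by the scanner software, whereas the 2 treated arrays of 96 h had percentiles of 788 and 903 and shares of 69.8% and 72.8%. Those 2 arrays were alone on a slide that was scanned on another day. Of the other slides, 1 held 8 UT arrays, including 1 of 96 h, 1 held the other 2 UT arrays of 96 h with 6 vit C-treated arrays, and 1 held a single vit C-treated array of 48 h, so that no slide held both treatments at the same time point. For the 96 h comparison, treatment therefore cannot be told apart from slide and day of scanning, nor can time in any comparison of treated cells at 96 h with an earlier time. At 8, 24 and 48 h every UT array was on the slide with 8 UT arrays and every treated array on other slides. Slide therefore differed with treatment at these times too.

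The macrophage label was checked on marker genes. Of 10 monocyte and macrophage markers on the array, 9 were well above background on every array, CD14, CD68 and CSF1R among them. Of 15 dendritic cell markers 8 were, while CLEC9A, FCER1A and CCL22 were above background on none of the 19 arrays, and of 10 T cell and thymocyte markers CD3D, RAG2 and DNTT were above background on none. On the log2 scale the summed dendritic cell markers lay between 3.16 and 3.24 on the vit C-treated arrays of 96 h and between 3.89 and 4.29 on the UT arrays of 96 h. Of these 15 markers 4 were called lower and 0 higher in treated cells at 96 h, where 12.8% of all genes were called in either direction and 2.72% higher. The 4 were CD83 by -1.56, CCL17 by -1.61, and CLEC9A and IRF4, which were above background on 0 and 1 of the 19 arrays. CD209 differed by 0.61 without being called. The summed monocyte and macrophage markers lay between 8.65 and 8.72 on the treated and between 8.55 and 8.76 on the UT arrays. Within this list FCGR3A was higher in treated cells by 2.02 and LYZ by 1.17, MSR1 was lower by -1.07, and the other 7 were not called. The summed B cell markers lay between 0.70 and 0.91 and between 0.87 and 2.03, and those of T cells and thymocytes between -0.63 and -0.55 and between 0.44 and 0.75. Of the 10 T cell and thymocyte markers 2 were called lower and 0 higher, beside the same 12.8% and 2.72% of all genes. They were PTCRA, lower by -1.68, and CD3D, which was above background on no array. CD2 differed by 0.32 and CD3E by 0.19 without being called. The part of these levels in the CD1 results was not tested. In bulk RNA, fewer cells that express a gene and less of its RNA per cell cannot be told apart.

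CD1A, CD1C, CD1D and CD1E were well above background on all 19 arrays, CD1B on 12. Between UT and vit C-treated cells the family was apart at 96 h. CD1A, CD1B and CD1C were higher in treated than in UT cells at that time, and CD1D and CD1E lay higher without passing the test. At 8, 24 and 48 h no member was called. The levels on each array show that the distance at 96 h came with a drop of 4 members in UT cells after 48 h, while no member was called lower in treated cells over that step.

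**Figure D1:**
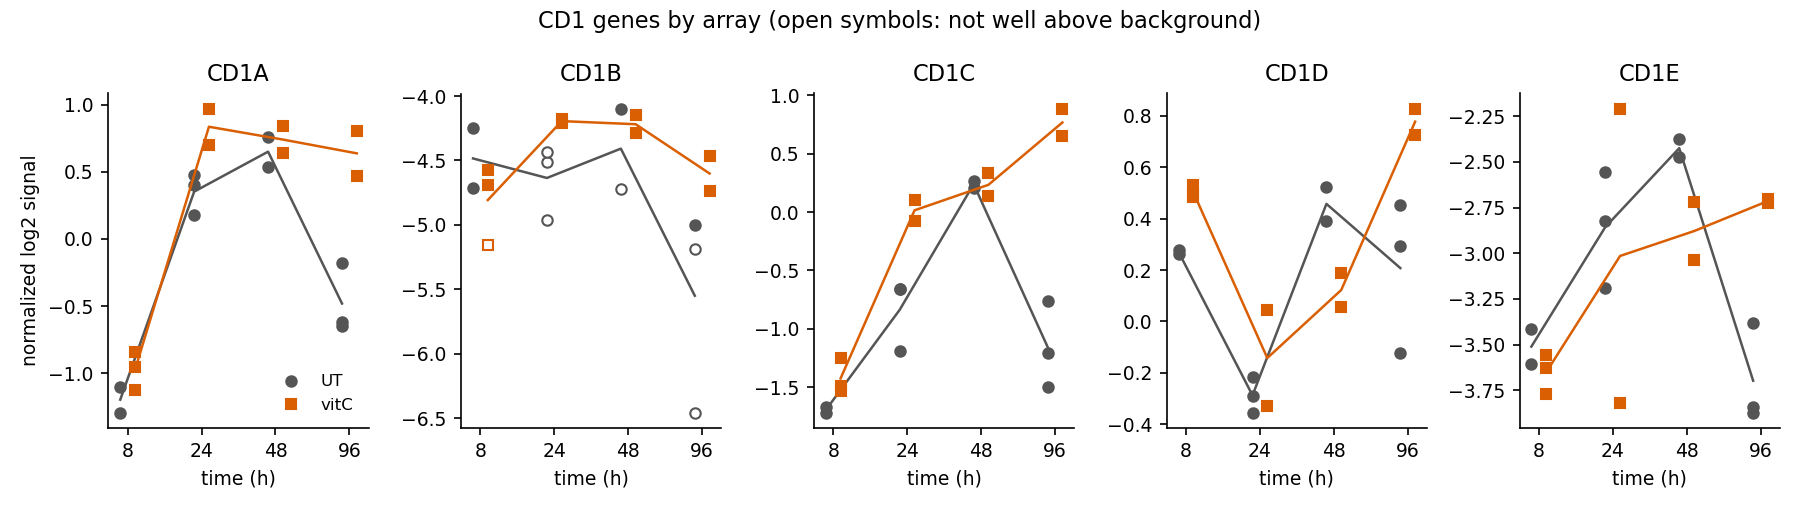
Normalized log2 signal of the brightest probe of each CD1 gene on each of the 19 arrays, against the time after vit C was added (h, evenly spaced). Grey circles are UT arrays and orange squares vit C-treated arrays, lines join the group means, and open symbols mark arrays on which the probe was not well above background. At 96 h the 2 vit C-treated arrays of CD1C, at 0.89 and 0.65, lie above all 3 UT arrays.

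CD1C is the member that surveys early endosomes and presents mycobacterial lipids such as mannosyl phosphomycoketides. In UT cells it read -1.67 and -1.72 at 8 h, -1.19, -0.66 and -0.66 at 24 h, 0.27 and 0.21 at 48 h and -1.49, -1.21 and -0.76 at 96 h. In vit C-treated cells it read -1.49, -1.53 and -1.25 at 8 h, 0.11 and -0.08 at 24 h, 0.14 and 0.33 at 48 h and 0.89 and 0.65 at 96 h. UT cells thus rose until 48 h and came back, and treated cells were highest at 96 h, where the 2 groups did not overlap. The mean was -1.15 ± 0.37 (SD, n = 3) in UT and 0.77 ± 0.17 (SD, n = 2) in treated cells, a 3.79-fold difference (log2 1.92, standard error 0.23, limma q = 0.000273). A gene was called where the absolute log2 difference was at least 1 and q, the Benjamini-Hochberg adjusted p over all probes tested, at most 0.05. The p-values rest on the spread between arrays of a group, pooled over the 8 groups, and the small number of arrays limits their precision. The call of CD1C at 96 h held without any single array, with a log2 difference between 1.75 and 2.12, and was lost in a limma fit on the 2 compared groups alone (q = 0.155).

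In the order of its 8 groups, CD1C in vit C-treated cells at 96 h stood highest and apart from the next group, UT cells at 48 h, by 0.53. UT and treated cells at 48 h overlapped, at 0.24 and 0.23. Treated cells at 24 h followed at 0.02, and below them a gap of 0.85 separated UT cells at 24 h, whose arrays overlapped those of UT cells at 96 h, which in turn overlapped treated cells at 8 h. At 24 h CD1C lay 0.85 higher in treated cells with no overlap between the arrays, and this was not called (limma q = 0.0813).

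CD1A, which presents lipids of the skin and of mycobacteria and marks Langerhans cells, read -1.10 and -1.29 in UT cells at 8 h, 0.40, 0.18 and 0.48 at 24 h, 0.54 and 0.76 at 48 h and -0.62, -0.65 and -0.17 at 96 h. In vit C-treated cells it read -0.84, -1.13 and -0.95 at 8 h, 0.70 and 0.97 at 24 h, 0.64 and 0.84 at 48 h and 0.80 and 0.47 at 96 h. Both arms started low and stood high at 24 and 48 h. UT cells then fell back, while the treated mean of this probe changed by -0.10 from 48 to 96 h. At 96 h the means were -0.48 ± 0.26 (SD, n = 3) and 0.64 ± 0.23 (SD, n = 2), a 2.17-fold difference (log2 1.12, standard error 0.20, limma q = 0.00578).

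The second CD1A probe gave the same answer between treated and UT cells at 96 h, from another stretch of the transcript. It read -2.31, -2.59 and -2.0 in UT and -1.06 and -1.18 in treated cells at 96 h, a log2 difference of 1.18 (limma q = 0.0192). In treated cells this second probe changed by -0.39 from 48 to 96 h (limma q = 0.323), with arrays that did not overlap. Without replicate 1 of the treated cells at 96 h the brightest probe differed by 0.95 (limma q = 0.0892), and CD1A was no longer called, nor was it in a limma fit on the compared groups alone (q = 0.180). In the order of levels, treated cells at 24 h, treated cells at 48 h, UT cells at 48 h, treated cells at 96 h and UT cells at 24 h each overlapped the next, and a gap of 0.83 then separated UT cells at 24 h from UT cells at 96 h.

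CD1B, which presents long-chain mycolic acids from late endosomes, was measured near background throughout. Its brightest probe read -6.46, -5.19 and -5.00 in UT and -4.47 and -4.73 in treated cells at 96 h, with 1 of 3 UT arrays and both treated arrays well above background. That difference was not called (limma q = 0.0977). CD1B was called through its other 2 probes, which were above background on no UT array at 96 h and on both treated arrays. The first of them read -6.79, -5.58 and -5.47 in UT and -4.10 and -4.61 in treated cells (limma q = 0.0304). By the bound described below it was 1.59-fold higher, and that q does not test the bound. The dimmest one was 1.12-fold higher by the bound (limma q = 0.0340 for its values as read). The call of the first of them was lost with signals floored (log2 difference 0.17), with a replicate block (limma q = 0.0558 and 0.0532 for the 2 numberings in the labels), without UT replicate 1 (limma q = 0.0748) and without either treated array (limma q = 0.131 and 0.111). Such a bound sets the mean of the treated arrays against the lowest signal that counted as well above background on each UT array, or the signal of the probe where that was higher. It is not a strict minimum, as the floored log2 difference of 0.17 lay below it. With normexp background correction, in which the local background is modelled and removed, the direction turned and the log2 difference was -0.42 for the brightest CD1B probe.

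CD1D, the group 2 member that natural killer T cells recognize, followed another course. In UT cells it read 0.28 and 0.26 at 8 h, -0.22, -0.35 and -0.29 at 24 h, 0.39 and 0.52 at 48 h and 0.29, -0.12 and 0.45 at 96 h. In vit C-treated cells it read 0.53, 0.49 and 0.48 at 8 h, -0.33 and 0.04 at 24 h, 0.06 and 0.19 at 48 h and 0.83 and 0.73 at 96 h. Its group mean was lowest at 24 h in each arm, a step from 8 h that the brightest probe did not pass in either. At 96 h it was higher in treated cells by 0.57 with a standard error of 0.19 (95% confidence interval 0.16 to 0.98, limma q = 0.0580), which is below the fold asked for. Its second probe differed by 0.36 (limma q = 0.391). The whole range of the brightest probe over the 8 group means ran from -0.29 to 0.78.

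CD1E, the intracellular helper of lipid loading, read -3.61 and -3.42 in UT cells at 8 h, -2.56, -3.19 and -2.82 at 24 h, -2.48 and -2.37 at 48 h and -3.87, -3.84 and -3.38 at 96 h. In vit C-treated cells it read -3.63, -3.56 and -3.77 at 8 h, -3.82 and -2.21 at 24 h, -2.72 and -3.04 at 48 h and -2.71 and -2.72 at 96 h. The 2 treated arrays at 24 h lay far apart, with an SD of 1.14. At 96 h the groups did not overlap and differed by 0.98 with a standard error of 0.35 (limma q = 0.0737), so that CD1E was not called. The second CD1E probe differed by 0.88 (limma q = 0.159), and its arrays overlapped. Without UT replicate 3 the difference was 1.14 (limma q = 0.0399), which would pass.

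At 96 h, then, 3 of the 5 genes were called higher and 0 lower, where 2.72% of all genes tested were called higher and 12.8% in either direction. The 3 calls became 0 in a fit on the compared groups alone and under the test that the study's methods name, and 1 with normexp correction. All 10 probes were higher, and for 5 of 5 brightest probes the arrays did not overlap, as was so for 10.7% of all genes in that direction. The median log2 difference of the 5 was 0.98, against -0.15 over the brightest probes of all genes. With the percentile taken over detected probes that overall median was -0.06, after quantile normalization -0.04 and with normexp background correction -0.40. Called in the other comparisons of treatment were 0 of 5 genes at 8 h (0.549% of all genes), 0 of 5 at 24 h (1.65%) and 0 of 5 at 48 h (3.64%). The median difference of the 5 was 0.22, 0.44 and -0.01 at these times.

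The 95% confidence intervals show what the arrays could have missed if slides did not differ, because the fit held no term for slide. At 48 h that of CD1C ran from -0.55 to 0.54, so that a log2 difference of 1 lay outside it. Over 18 other settings the CD1C difference at 48 h ran from -0.61 to 0.13. For CD1A at 48 h it ran from -0.39 to 0.57 with the brightest probe and from -0.03 to 1.22 with the second probe, which does include 1.

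**Figure D2:**
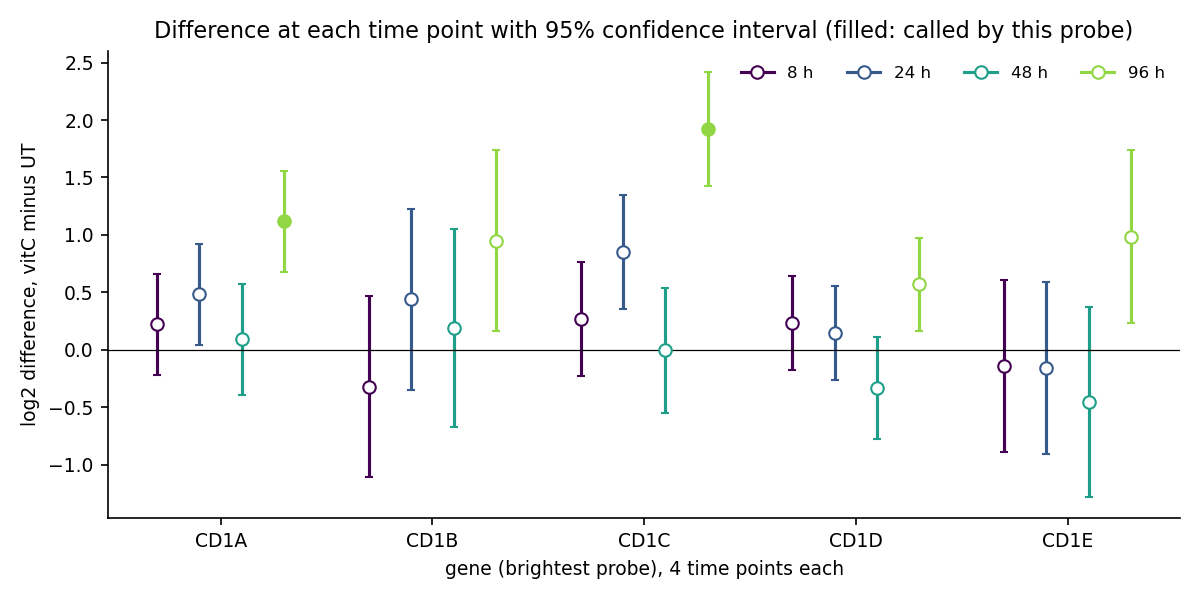
Log2 difference of each CD1 gene, vit C-treated minus UT, at 8, 24, 48 and 96 h for the brightest probe, with the 95% confidence interval from the limma fit as bars. Filled points passed the test by that probe. CD1C at 96 h, at 1.92, is the highest point, and the intervals of all 5 genes at 96 h lie above 0.

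Whether the effect of vit C itself changed with time was tested on the differences between the 4 time points. CD1C was the member that passed (limma F test, q = 0.0350), as 1.36% of all genes did. Its effect was larger at 96 h than at 8 h by 1.65 (limma q = 0.0231, called, as were 1.09% of genes in that direction) and larger than at 48 h by 1.93 (limma q = 0.0247, called, with 0.483% of genes). Against 24 h it was larger by 1.07 (limma q = 0.140). For CD1A the F test gave q = 0.202, for CD1D 0.263, for CD1E 0.290 and for the brightest CD1B probe 0.437 by limma. The F test of CD1C is close to its threshold: it passed in 7 of the 19 fits that left out 1 array. Averaged over the 4 time points, CD1C was 0.76 higher in treated cells (limma q = 0.000931) and CD1A 0.48 (limma q = 0.00873), and none of the 5 reached the fold asked for, whereas 3.46% of all genes were called.

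Time within each arm was compared next. The CD1 calls in UT cells between neighbouring time points became 0 in fits on the compared groups alone. From 8 to 24 h CD1A rose 2.92-fold in UT cells (log2 1.55, standard error 0.20, limma q = 0.000721) and was the 1 member called there, with 1.37% of all genes called higher. In vit C-treated cells CD1A rose by 1.81 (limma q = 9.6e-05) and CD1C by 1.44 (limma q = 0.00144), with 2.95% of genes called higher. CD1D was called lower over this step in treated cells (2.66% of genes) through its second probe, by -1.48 (limma q = 0.00264), and its brightest probe changed by -0.64 (limma q = 0.0589). In UT cells CD1D changed by -0.56 (limma q = 0.149) and CD1C by 0.86 (limma q = 0.0641).

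From 24 to 48 h CD1C was called higher in UT cells, by 1.08 (limma q = 0.0107), with 3.72% of genes. Leaving out UT replicate 1 of 24 h, or replicate 1 or 2 of 48 h, removed this call, as did normexp correction. CD1D changed by 0.74 (limma q = 0.0296), below the fold asked for. In treated cells 0 of 5 members were called between 24 and 48 h, where 6.62% of genes were in either direction, and CD1C differed by 0.22 and CD1A by -0.10.

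From 48 to 96 h 4 of the 5 genes fell in UT cells: CD1C by -1.39 (limma q = 0.000924), CD1A by -1.13 (limma q = 0.00172), CD1E by -1.27 (limma q = 0.0247) and CD1B by -1.14 (limma q = 0.0499), where 6% of all genes were called lower. CD1D changed by -0.25, and its probes went opposite ways. The CD1B value is that of its brightest probe, which was above background on 1 of 2 UT arrays of 48 h and on 1 of 3 of 96 h. Its other probes changed by -1.42 (limma q = 0.0282) and, with overlapping arrays, by -1.06 (limma q = 0.133). The second CD1A probe changed by -0.98 (limma q = 0.0229), below the fold asked for. The second CD1E probe changed by -0.82 (limma q = 0.198), and its arrays overlapped. The 4 calls became 0 in a fit on the compared groups alone, and 2 with normexp correction or with a replicate block on the numbers of the descriptions. Without either UT array of 48 h or without UT replicate 1 of 96 h the calls were down to 2, CD1A and CD1C. On the slide that held both UT arrays of 48 h and 1 of 96 h, the differences were -1.73 for CD1C, -1.27 for CD1A and -1.45 for CD1E, with no test because a single array stood for 96 h. In treated cells 0 of 5 were called over this step, where 26.3% of genes were in either direction, and CD1C differed by 0.53 (limma q = 0.130), CD1D by 0.65 (limma q = 0.0307, below the fold asked for) and CD1A by -0.10.

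Over the whole course, and across slides, treated cells at 96 h were above treated cells at 8 h for CD1C by 2.19 (limma q = 7.27e-06) and for CD1A by 1.61 (limma q = 4.30e-05), 2 of 5 members called, with 10.9% of all genes called higher. In UT cells the same interval gave 0.72 for CD1A (limma q = 0.0221, below the fold asked for) and 0.54 for CD1C (limma q = 0.120). CD1B was the 1 member called lower there, through its 2 dimmer probes, where 7.18% of genes were. For the brighter of these it was 1.25-fold lower by a bound of the kind used above. The CD1B call was lost in the fit on the compared groups alone, with normexp correction and with floored signals. It was also lost without either UT array of 8 h, UT replicate 3 of 24 h or UT replicate 1 of 96 h. The UT and treated courses use different arrays, and their differences are those of the F test above.

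Across the 19 arrays CD1A and CD1C had the most similar course in the family, with a Pearson r of 0.88 and a Spearman rho of 0.87. CD1A and CD1E had 0.75 and 0.65, CD1C and CD1E 0.65 and 0.63. CD1D stood apart, with r between -0.19 and 0.16 against the other 4. The 19 points are arrays of 8 groups that share slides and time points, so these values describe the arrays and carry no p.

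Among 24123 probes of other named genes, those most like CD1A over the 19 arrays were SLC16A6 (r = 0.953), CYP1B1 (0.952), CFLAR (0.938), SYT11 (0.931) and NAV3 (0.930). Those most like CD1C were both probes of GJB2, a gap junction protein (0.895 and 0.894), NAV3 (0.886), CXCL5, a chemokine for neutrophils (0.882), and CDA, cytidine deaminase (0.882). NAV3 was thus in the closest 5 of both. Of these, GJB2 differed at 96 h by 2.63 and 2.80, CXCL5 by 4.52, NAV3 by 1.72 and CDA by 1.76. For CD1D the closest were BBS7, SLC1A1, DACH1, EXTL2 and CEP63, with r from 0.805 to 0.828, and for CD1E they were UBL3, PTPN1, PNPLA8, PPM2C and ARHGAP26, with r from 0.819 to 0.867. For CD1B, near background on many arrays, RPGR, ELOVL7, CEACAM1, PTPRG and STEAP1 were closest, with r from 0.787 to 0.812.

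The genes that assemble, load, move and regulate CD1 were read alongside, as 70 further genes on the array. For 66 of them some probe passed the background test throughout 1 or more groups. At 96 h 1 of the 70 was called higher and 3 lower, where 2.72% of all genes were called higher and 12.8% in either direction, and 0 of the 5 assembly partners were called, B2M among them, which encodes the beta-2 microglobulin chain of every CD1 molecule and differed by -0.07. None of the 17 adaptor and trafficking genes, the 12 lysosomal lipid hydrolases or the 8 lipid uptake genes was called at 96 h. The median difference of the 66 was -0.08, against 0.98 for the 5 CD1 genes. LGMN, the lysosomal protease legumain, was the gene called higher, and it was above background on 5 of the 19 arrays.

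The 3 genes called lower at 96 h were all listed as regulators of CD1 transcription. LEF1, a factor of the TCF/LEF family that has been linked to CD1D, was above background on every array. It went from 2.05 ± 0.15 (SD, n = 2) at 48 h to 2.14 ± 0.39 (SD, n = 3) at 96 h in UT cells and from 0.63 ± 0.10 (SD, n = 2) to 0.12 ± 0.13 (SD, n = 2) in treated cells. The difference at 96 h was -2.02 (limma q = 0.000298). CSF2, the growth factor GM-CSF used to grow CD1-bearing dendritic cells from monocytes, was above background on 8 arrays, and IRF4 on 1, so that no fold is given for either. SPI1, which encodes PU.1, differed by 0.33 (limma q = 0.519).

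**Figure D3:**
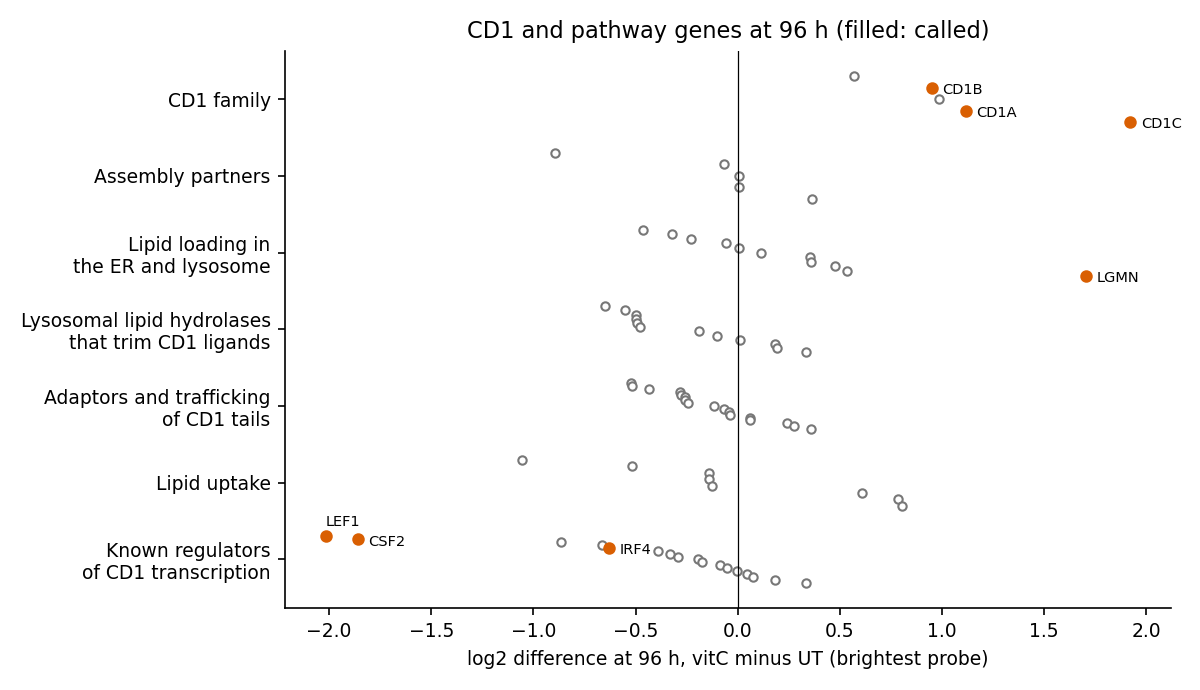
Log2 difference at 96 h, vit C-treated minus UT, of the brightest probe of each CD1 gene and of the 70 genes of its pathway, by group. Filled points are genes called by at least 1 of their probes, and the vertical offset within a group only separates points. The CD1 genes all lie to the right of 0, while the assembly partners and most other groups lie on both sides.

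At 8 h 0 of the 70 pathway genes were called (0.549% of all genes), at 24 h 3 (1.65% of all genes) and at 48 h 5 (3.64% of all genes). At 24 h GM2A, a lipid transfer protein of the lysosome, was lower in treated cells by -0.95 for its brightest probe and called through another, as were CSF2RA and LEF1. At 48 h NPC2, a lysosomal lipid carrier, was lower by -1.16 (limma q = 0.00410) and LIPA, the lysosomal acid lipase, by -1.15 (limma q = 0.0140), with LEF1 lower by -1.42 (limma q = 0.0115) and MTTP, near background, lower as well. PPARG, a lipid-sensing nuclear receptor known to lower CD1A and raise CD1D in dendritic cells, was higher at 48 h by 1.10 (limma q = 0.0290) and differed by 0.08 at 96 h.

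The 250 bases before the starts of 4 CD1 genes were searched for 6 short motifs on both strands in RefSeq's GRCh38.p14 sequences. GGAAGT, an ETS-type core, was found upstream of CD1A (first base 42 bases before the start), of CD1C (122 bases) and of CD1E (49 and 7 bases), and before neither start of CD1D. It occurs in 19.5% of the 35116 upstream sequences of all genes. GAGGAA, a purine-rich box, was found upstream of CD1A, where it overlaps GGAAGT, of CD1C and of 1 start of CD1D, against 23.6% of all. CTTTGA, a TCF/LEF core, occurred at the other start of CD1D, 213 and 87 bases before it, and upstream of none of CD1A, CD1C and CD1E, against 11.2%. AGGTCA, a half-site of nuclear receptors, occurred at CD1C and at 1 start of CD1D (12.1% of all), and GGGCGG and TATAAA in none of the 6 sequences searched (42.6% and 10.7%). The 6 sequences belong to CD1A, CD1C, CD1D and CD1E, and CD1B was not searched. A second start of CD1A held none of the 6. These matches describe the letters in the window, and their part in the courses of the genes was not tested. In the sequences below, of chr1:158248086-158248335 for CD1A, chr1:158289673-158289922 for CD1C and chr1:158180645-158180894 for CD1D, all on the plus strand, capitals mark the ETS-type core and the purine-rich box at CD1A and CD1C and the TCF/LEF core at CD1D.
CD1A upstream: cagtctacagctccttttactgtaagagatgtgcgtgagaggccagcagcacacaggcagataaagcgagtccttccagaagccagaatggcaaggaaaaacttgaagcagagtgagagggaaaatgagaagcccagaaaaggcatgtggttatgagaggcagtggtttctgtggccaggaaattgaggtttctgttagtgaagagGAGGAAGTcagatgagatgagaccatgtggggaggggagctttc
CD1C upstream: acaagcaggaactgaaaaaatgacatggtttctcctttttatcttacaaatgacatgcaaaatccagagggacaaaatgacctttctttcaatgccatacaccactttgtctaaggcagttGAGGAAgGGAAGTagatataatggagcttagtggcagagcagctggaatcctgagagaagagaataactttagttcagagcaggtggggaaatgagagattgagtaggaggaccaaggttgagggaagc
CD1D upstream: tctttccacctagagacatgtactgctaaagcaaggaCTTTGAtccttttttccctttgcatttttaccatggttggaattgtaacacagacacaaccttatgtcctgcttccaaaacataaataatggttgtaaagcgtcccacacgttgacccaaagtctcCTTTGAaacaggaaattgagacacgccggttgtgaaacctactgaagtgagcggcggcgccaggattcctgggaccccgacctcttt

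The size of the 96 h differences under other ways of processing is shown per gene. CD1C stayed between 1.62 and 2.13 and CD1A between 0.90 and 1.23 in 17 alternatives. CD1B ran from -0.42 to 1.41 and CD1E from 0.19 to 1.11. Calls were lost within these ranges: CD1C and CD1A were not called in the limma fit on the compared groups alone (q = 0.155 and 0.180), and CD1A with normexp correction fell below the fold asked for.

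**Figure D4:**
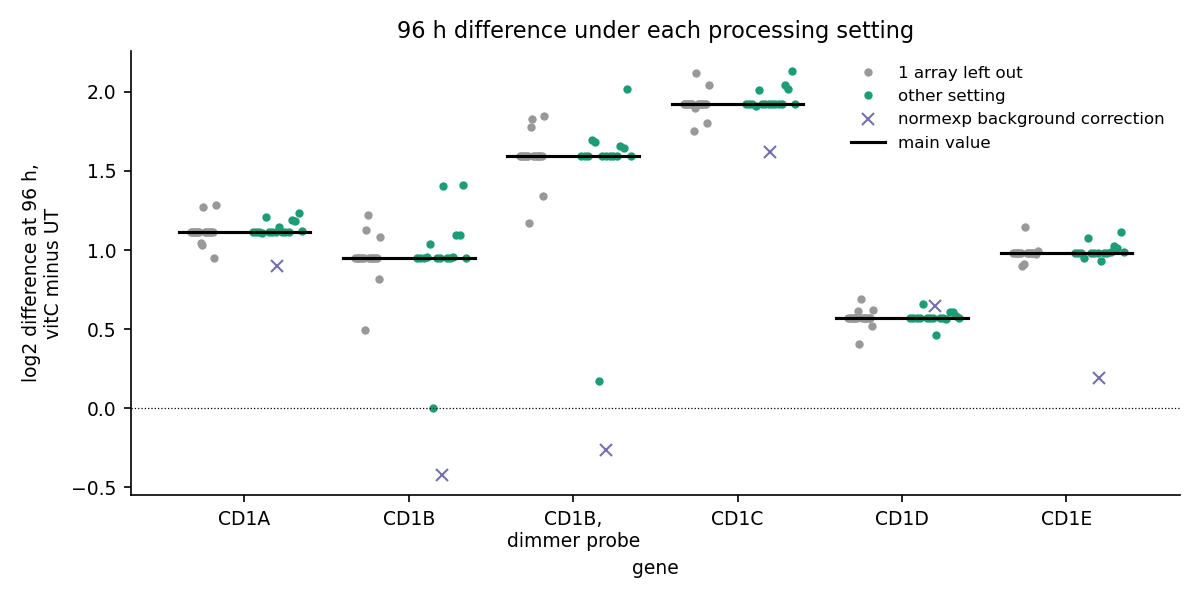
Log2 difference at 96 h, vit C-treated minus UT, of each CD1 gene under the processing settings tried, with the brightest probe except where a dimmer CD1B probe is named. Black lines are the reported values, grey points fits without 1 array, green points other settings and purple crosses normexp background correction. CD1C spans 1.62 to 2.13 over the settings that keep all arrays, and the 2 CD1B crosses lie below 0.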

How the data were processed

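RNA from PMA-treated THP-1 cells was hybridised by the authors to 19 one-colour Agilent arrays. The deposited processed signal was taken as an intensity, detrended but without local background subtraction, written per the file headers by Feature Extraction 10.5.1.1. The study describes the processed signal as background subtracted, unlike the reading here. The authors' deposited value table is on the log2 scale and served as an alternative. Of 52857 spots, 51538 were no controls, and spots of 1 probe were averaged into 50238 probes of 31033 gene names. Each signal was log2-transformed and the array's 75th percentile subtracted. A model of 8 group means was fitted with limma 3.58.1 in R 4.3.3, first tested on simulated data. Benjamini-Hochberg adjustment ran over probes, after genes with opposing probes were set aside except in the F test. A gene was called by any of its probes at a log2 difference of at least 1 and q of at most 0.05.

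All CD1 genes were named, with the 5 other probes most like each by Pearson r and the pathway genes called in the vit C comparisons at the 4 time points. B2M and SPI1 fall outside this rule and were chosen after their values were seen. The members and lists were chosen with earlier results of these data known. Alternatives were other normalizations, a fit on the compared groups alone, the methods' t-test, slide and replicate blocks, array weights, other probe rules and leaving out each array. Comparisons between neighbouring time points and the dimmer CD1B probe were added after seeing the data. Probe sequences came from the deposited files, and upstream sequences and gene positions from RefSeq's GRCh38.p14, which held 6 upstream sequences for 4 of the CD1 genes.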

Additional observations from a re-analysis of the deposited data

Results flagged for a closer look

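The difference between vit C-treated and UT cells in CD1C was larger at 96 h than at 8 h by 1.65 (limma q = 0.0231) and larger at 96 h than at 48 h by 1.93 (limma q = 0.0247), and the limma F test over the 4 effects gave q = 0.0350. That F test passed in 7 of the 19 fits without 1 array, and both differences rest on the treated arrays of 96 h, where treatment cannot be told apart from slide. For 3 further differences every treated array lay on one side of the UT arrays at one time and on the other side at the other time, without passing the test. For CD1D the effect at 48 h was below that at 8 h by -0.57 (limma q = 0.742), and the effect at 96 h was above that at 48 h by 0.90 (limma q = 0.145). For CD1E the effect at 96 h was above that at 48 h by 1.44 (limma q = 0.187). These are values of the brightest probes. At 48 h the second probes of CD1D and CD1E differed the other way, by 0.20 and 0.07.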

How the results depend on the processing

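At 8, 24 and 48 h 0 CD1 genes were called under every setting, and vit C-treated cells at 96 against 8 h always gave 2. The 3 genes called at 96 h became 0 under the methods' t-test, 0 in a fit on the compared groups alone and 1 (CD1C) with normexp background correction, and ranged from 1 to 4 when 1 array was left out, with 1 without vit C replicate 1 of 96 h. Under that t-test CD1A and CD1C each had an adjusted p of 0.268 at 96 h, and the calls between neighbouring times (1, 1 and 4 in UT cells, 3 in treated cells from 8 to 24 h) all became 0. For UT cells at 96 against 8 h the count of 1 became 0 under the t-test, 0 in the fit on the compared groups, 0 with normexp, 0 with floored signals and 2 with no minimum fold, and ranged from 0 to 1 without 1 array, with 0 without either UT array of 8 h, UT replicate 3 of 24 h or UT replicate 1 of 96 h. The F test count of 1 became 4 at an unadjusted p and 2 with array weights, and ranged from 0 to 1 without 1 array. With a replicate block, on either numbering in the labels, 3 genes were called at 96 h, 1 in UT and 2 in treated cells over time, and 1 by the F test. With the numbers of the descriptions the block lowered the calls in UT cells from 48 to 96 h from 4 to 2, and with either numbering CD1B's dimmer probe lost its call at 96 h. Same-numbered arrays did not deviate together (8 pairs, r from -0.19 to 0.11), so the numbers do not pair the samples.

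Directions turned as follows, and the cause was not tested. With normexp, CD1B was 0.068 at 8 h, turned to -0.13 at 24 h and -0.0015 at 48 h, and at 96 h was -0.42 (-0.26 for the dimmer probe), CD1E 0.10 at 8 h, CD1C 0.13 at 48 h, CD1E 0.0395 over time in UT and CD1B -0.61 in treated cells. With the percentile over detected probes CD1C was 0.0498 at 48 h. With the mean of a gene's probes CD1E was 0.14 at 8 h, CD1D -0.14 at 24 h, and over time CD1D 0.027 and CD1E 0.0375 in UT and CD1D -0.0587 in treated cells. With slide as a fixed block, which could give no value at 96 h, CD1C was -0.24 at 8 h, CD1B -0.92 at 24 h and -1.24 at 48 h, CD1A -0.22 at 48 h and CD1D 0.0228 over time in UT. Without 1 array CD1D ranged from -0.0411 to 0.33 and CD1E from -0.96 to 0.65 at 24 h, CD1A from -0.0213 to 0.20, CD1B from -0.12 to 0.50 and CD1C from -0.10 to 0.0938 at 48 h, and CD1D from -0.19 to 0.10 over time in UT.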
